A study of Mus musculus with 21 samples.

Results

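The 10 genes described here, of 19057 with a probe on the array, were chosen by their measured signal. It differed widely among clones of induced neural stem cells, or between those clones and a neural stem cell line from mouse forebrain. They are Mcts1, Cgas, Acsl5, Ddit4l, Ramp1, Csmd2, Lxn, Ilvbl, Mmd2 and Smim20. Their 20 probes (of 45281) were all examined, and 15 of these were among the 15972 tested probes, so that each of the 10 genes was one of the 10449 genes tested. The choice rested on their scanner signal in the 4 neural lines, and those levels are therefore given below as a description with no test, and only the comparison of ES with MEF, which the choice did not use, is tested on them.

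Total RNA was labelled with biotin and hybridised to Illumina MouseWG-6 bead arrays, 21 arrays in all. Clones 2, 3 and 5 of the induced cells (iNS2 on 3 arrays, iNS3 and iNS5 on 4 each) are labelled as derived from Oct4-GiP mouse embryonic fibroblasts, and their titles carry the marker name Oct4-GFP. Each is 1 clone, and the factors used for conversion are not given in the labels used here. NS (3 arrays) is a control neural stem cell line from primary cells of mouse forebrain. ES (3 arrays) is a control embryonic stem cell line, whose source label repeats that of the fibroblasts, and MEF (4 arrays) is the Oct4-GFP embryonic fibroblast. The series text describes repeat arrays as technical replicates, and nothing states how many cultures or RNA extracts each line had. Every SD and p-value here therefore measures the spread between repeat arrays of a line. It is not a measure of the spread between cultures or animals. The scanner's detection p-value is the fraction of negative control beads at least as bright as the probe, and values under 0.01 are called well above background here. Each array had 14407 to 16021 such probes, and its dimmest passing signal lay between 143.7 and 192.5 scanner units, or 5.29 to 5.65 on the normalised log2 scale. The 20 probes were read from 23 to 76 beads per array, with a bead standard error of 1.8% to 6.17% of the signal.

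All 4 measured neural stem markers (Nes, Sox2, Olig2 and Fabp7) passed on every array of the clones and of NS, with line means of 7.57 to 11.93 on the log2 scale. The 5 fibroblast markers (Col1a1, Col1a2, Thy1, Pdgfrb and Postn) were at background on every array of these lines. Nanog, Pou5f1, Zfp42 and Dppa5a marked ES at 12.5 to 14.97. Outside ES they were low, but Dppa5a passed on all 4 iNS5 arrays (5.67) and all 3 NS arrays (5.51). Pou5f1 passed on 1 array each of iNS2, iNS3, iNS5, NS and MEF, Nanog on 1 iNS5 array, and Zfp42 on no array outside ES. The 3 astrocyte markers were low and did not follow 1 clone. Gfap passed on all 4 iNS3 arrays (6.35), on 1 NS array and on no array of iNS2 or iNS5, Aqp4 passed on all 4 iNS5 arrays (5.85) and on 2 arrays each of iNS2 and iNS3, and S100b passed on 1 iNS3 array. Of the 4 neuronal markers, Map2 passed on every array of the clones and NS (12.52 to 13.2), Dcx passed on 2 arrays each of iNS2 and iNS5, and Tubb3 and Rbfox3 were at background in all clones and NS. Of the 2 oligodendrocyte markers, Mbp passed on 2 iNS5 arrays and Mog on none. The 4 microglia and blood markers were at background on every array of iNS2, iNS5 and NS, while Aif1 and Csf1r passed on 1 iNS3 array each. The 2 endothelial markers were at background on every array of the clones and NS. The part of these markers in the differences below was not tested. Fewer cells that express a gene and less of its RNA per cell cannot be told apart in bulk RNA.

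The 10 genes do not share 1 common pathway. Neural stem cells in culture divide in response to growth factors and keep the capacity to form neurons and glia. Mcts1 works in translation, Cgas in the sensing of DNA in the cytosol, Acsl5 and Ilvbl in fatty acid metabolism, Ddit4l in growth control by mTORC1, Ramp1 in signalling by calcitonin family peptides, Lxn in the inhibition of carboxypeptidases and Smim20 in the assembly of the respiratory chain.

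The stretches around the start sites of Mcts1, Ddit4l, Lxn and Smim20 are shown. These genes lay at background in iNS2 (Mcts1), iNS3 (Ddit4l), iNS5 (Lxn) or every clone (Smim20). Cgas also lay at background in iNS2, but its window is not shown. The windows run from 250 bases before to 50 bases after the start, come from RefSeq (GRCm38.p6), read 5′ to 3′ on the gene's strand, and carry each CG dinucleotide in capitals. In order they are chrX:38600221-38600520 (+), chr3:137623422-137623721 (+), chr3:67463858-67464157 (-) and chr5:53266856-53267155 (+). Mcts1 has another window further along.
Mcts1: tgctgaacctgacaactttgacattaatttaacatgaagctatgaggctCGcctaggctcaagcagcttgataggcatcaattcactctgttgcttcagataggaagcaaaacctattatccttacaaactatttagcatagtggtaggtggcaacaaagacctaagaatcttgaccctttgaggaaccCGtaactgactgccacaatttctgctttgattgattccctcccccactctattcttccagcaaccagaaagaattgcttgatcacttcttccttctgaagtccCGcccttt
Ddit4l: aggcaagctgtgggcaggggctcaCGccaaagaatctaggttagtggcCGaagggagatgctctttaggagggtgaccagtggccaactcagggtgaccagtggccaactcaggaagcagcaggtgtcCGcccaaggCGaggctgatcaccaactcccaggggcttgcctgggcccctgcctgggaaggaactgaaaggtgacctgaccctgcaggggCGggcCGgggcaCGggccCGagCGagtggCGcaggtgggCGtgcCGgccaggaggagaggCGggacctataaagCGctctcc
Lxn: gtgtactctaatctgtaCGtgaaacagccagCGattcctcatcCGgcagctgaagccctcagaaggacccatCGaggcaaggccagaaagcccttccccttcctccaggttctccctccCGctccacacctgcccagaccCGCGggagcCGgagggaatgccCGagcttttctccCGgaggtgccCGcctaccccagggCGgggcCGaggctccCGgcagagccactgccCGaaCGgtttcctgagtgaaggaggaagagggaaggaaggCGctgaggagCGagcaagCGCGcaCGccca
Smim20: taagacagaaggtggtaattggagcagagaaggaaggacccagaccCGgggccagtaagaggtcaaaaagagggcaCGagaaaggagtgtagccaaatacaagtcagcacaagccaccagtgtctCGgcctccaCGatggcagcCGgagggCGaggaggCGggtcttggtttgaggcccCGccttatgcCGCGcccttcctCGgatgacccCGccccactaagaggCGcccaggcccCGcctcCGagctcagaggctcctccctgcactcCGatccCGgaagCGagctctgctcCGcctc
The Mcts1 window holds 3 CGs, and 76.7% of the 32851 RefSeq windows of this length hold at least that many. Ddit4l, with 14 CGs, lies among the 36.3% of windows that hold at least that many, Lxn with 21 among 24.8% and Smim20 with 19 among 28.1%. The median window holds 7. All of the 10 genes but Csmd2 matched a window, 12 windows in all. The other counts were 2 for the second window of Mcts1, 16 for Cgas, 9 for Acsl5, 6 for Ramp1 and 18 for Mmd2. The windows of Ilvbl held 25, 24 and 20. The letters TATAAA, searched on both strands, occurred in 1 of the 12 windows (Ddit4l) and in 13.6% of all windows. These letters are a description of the windows, and no methylation or binding was measured in these data.

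Over iNS2, iNS3, iNS5 and NS, the line means of the 10 genes spanned 4.34 to 6.81 on the log2 scale, against a median of 0.47 over all 10449 genes. Only 14.8% of all genes (1546) spanned more than 1. The ranks were 2 for Lxn (6.81), 4 for Ddit4l (6.40), 5 for Mcts1 (6.30), 10 for Csmd2 (5.81), 12 for Cgas (5.43) and 17 for Mmd2 (4.94). Smim20 (4.43), Acsl5 (4.42), Ilvbl (4.38) and Ramp1 (4.34) ranked 26, 27, 28 and 30, so that 30 genes, these 10 included, spanned at least as much as Ramp1. The widest range belonged to Ctsc, a lysosomal cysteine protease, at 7.09. The 10 genes were picked for this measure, so their ranks state how they were chosen.

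**Figure D1:**
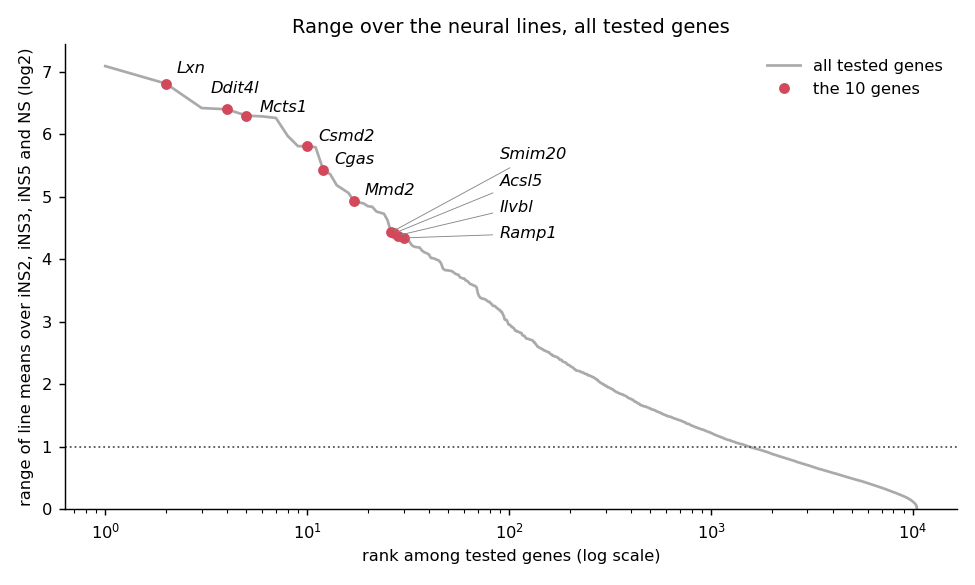
Range of the line means over iNS2, iNS3, iNS5 and NS (log2, vertical axis) for all 10449 tested genes in order of rank (horizontal axis, log scale), with the 10 genes as red points and a dotted line at 1. The 10 points lie between ranks 2 and 30, at ranges of 6.81 to 4.34.

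The levels of the 10 genes fell into several patterns. Mcts1, Cgas and Acsl5 were lowest in iNS2. Ddit4l and Ramp1 were lowest of the neural lines in iNS3, and Csmd2 was above background in iNS2 and iNS5 alone. Lxn and Ilvbl were lowest in iNS5, Mmd2 was highest in iNS5, and Smim20 was at background in all 3 clones and above it in NS. Scanner signals below include the background light of the array, and the folds use normalised levels. Where a line lay at background, the fold is a lower bound computed from the dimmest signal that passed there, and is written "at least".

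**Figure D2:**
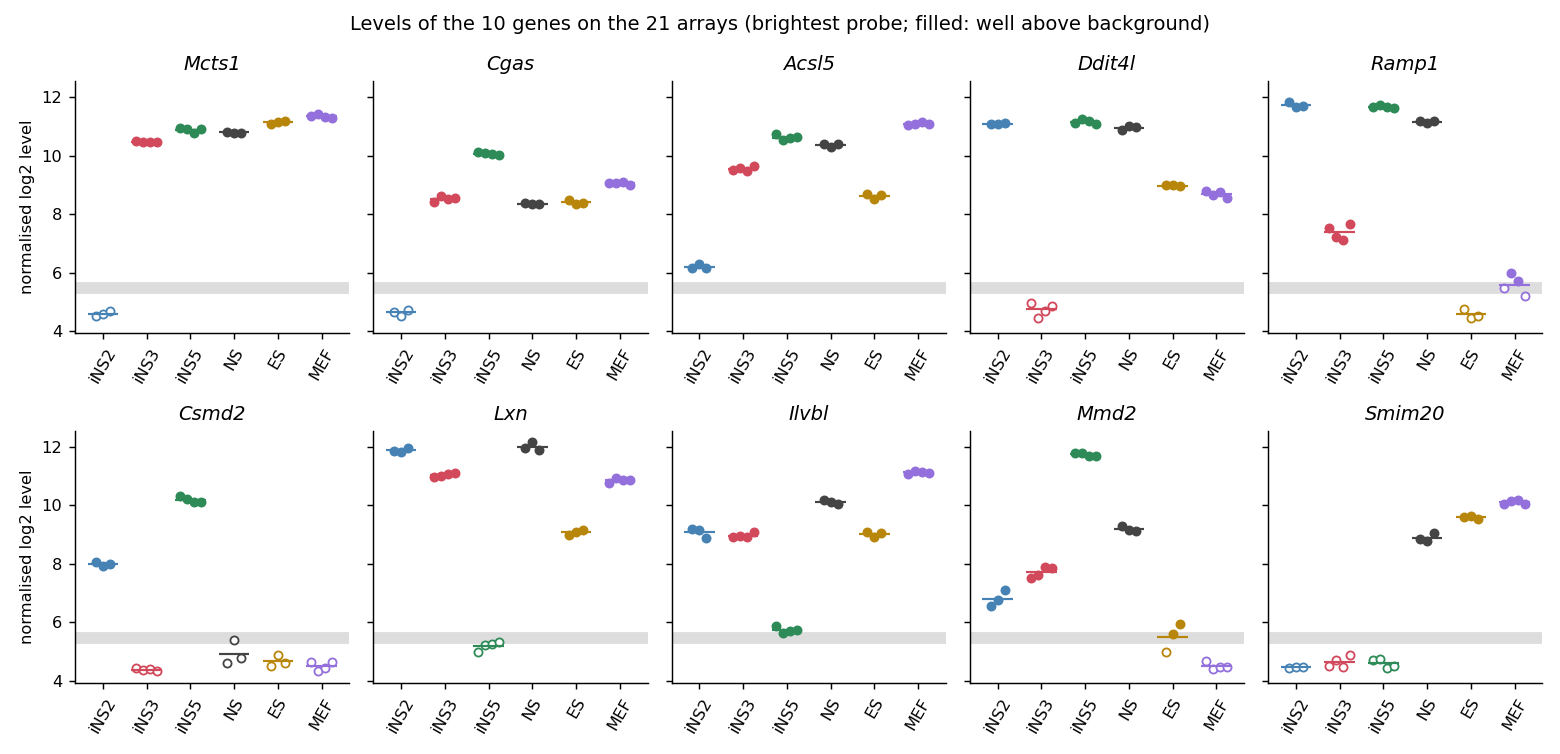
Normalised log2 level (vertical axis) of the brightest probe of each of the 10 genes on each array, by line; bars are line means, filled points are well above background, open points are not, and the grey band spans the dimmest passing level of the 21 arrays, 5.29 to 5.65. Open points mark Mcts1 and Cgas in iNS2, Ddit4l in iNS3, Lxn in iNS5, Csmd2 outside iNS2 and iNS5, Smim20 in the clones, and ES or MEF arrays of Ramp1 and Mmd2.

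Mcts1, on chromosome X (38600471 to 38613524), encodes a partner of Denr that helps ribosomes leave an RNA and restart on it. Mcts2 is a close copy of Mcts1, and whether the Mcts1 probe also binds Mcts2 RNA was not tested, so its signal may include both. This 1 probe gave 140.6, 133.9 and 136.4 scanner units in iNS2, 1655.8, 1425.2, 1562.7 and 1198.9 in iNS3, plus 1894.0, 2734.5, 2224.1 and 2575.4 in iNS5. The control lines gave 1661.5, 1926.8 and 1854.1 in NS, 2550.3, 2403.8 and 2285.6 in ES, and 2473.9, 2628.2, 2363.8 and 2445.8 in MEF. All 3 iNS2 arrays were at background and the other 18 arrays well above it. The log2 level was 4.59 ± 0.07 in iNS2 (SD, n = 3), 10.47 ± 0.03 in iNS3 (n = 4), 10.89 ± 0.06 in iNS5 (n = 4) and 10.79 ± 0.02 in NS (n = 3). Mcts1 was thus at least 33.4-fold lower in iNS2 than in iNS3, at least 44.7-fold lower than in iNS5, at least 41.7-fold lower than in NS and at least 61.3-fold lower than in MEF. The other lines lay close together, with iNS3 1.25-fold lower than NS, and the arrays of iNS5 and NS overlapped. As Mcts1 is X-linked, other sex-linked values are given beside it. Xist, the RNA that silences an X chromosome, was at 4.49 in iNS2, 4.58 in iNS3 and 4.68 in iNS5 (at background on every clone array), 10.78 in NS, 4.56 in ES and 9.03 in MEF. The Y-linked Kdm5d was above background on all 11 clone arrays (7.27 in iNS2, 6.63 in iNS3 and 7.51 in iNS5) and at background in NS, ES and MEF. The Y-linked Eif2s3y passed on every array of all 6 lines, at 10.2 in iNS2, 10.32 in iNS3, 10.02 in iNS5, 6.09 in NS, 10.93 in ES and 7.74 in MEF. The Y-linked Uty was dim and passed on 2 iNS2 arrays, 4 iNS5 arrays and 1 ES array. Xist was at background, and Kdm5d and Eif2s3y above it, in all 3 clones. Mcts1 was at background in iNS2 alone, and any link between these sex-linked values and its level was not tested.

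Cgas, on chromosome 9 (78430518 to 78443237), encodes the enzyme that binds DNA in the cytosol and makes the messenger that activates STING. Its brighter probe gave 147.0, 132.2 and 138.0 scanner units in iNS2, 488.0, 488.6, 497.3 and 403.8 in iNS3, plus 1118.8, 1612.3, 1400.3 and 1454.6 in iNS5. Values were 396.1, 458.7 and 449.8 in NS, 506.9, 435.4 and 410.2 in ES, and 578.6, 580.9, 572.6 and 577.8 in MEF. iNS2 was at background on all 3 arrays, and iNS5 was above every other line on every array. On the log2 scale the means were 4.64 ± 0.10 in iNS2 (SD, n = 3), 8.53 ± 0.08 in iNS3 (n = 4), 10.07 ± 0.04 in iNS5 (n = 4), 8.36 ± 0.02 in NS (n = 3), 8.41 ± 0.08 in ES (n = 3) and 9.06 ± 0.05 in MEF (n = 4). The clones thus differed on either side of NS, with iNS2 at least 7.72-fold lower than NS and iNS5 3.28-fold higher, and between the 2 clones the difference was at least 25.4-fold. The arrays of iNS3 and ES overlapped, as did those of ES and NS. The second Cgas probe was at background on all 21 arrays and carries no information on the pattern.

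Acsl5, on chromosome 19 (55251861 to 55296628), encodes an enzyme that joins long-chain fatty acids to coenzyme A. The brightest of its 4 probes gave 208.9, 192.8 and 185.1 scanner units in iNS2, 896.5, 827.4, 851.7 and 732.6 in iNS3, plus 1655.1, 2128.0, 1968.2 and 2138.5 in iNS5. It gave 1273.1, 1417.9 and 1431.4 in NS, 567.0, 470.5 and 471.2 in ES, and 2035.6, 2145.7, 2092.0 and 2154.5 in MEF. Acsl5 stayed well above background on all 21 arrays, iNS2 included, so its folds are measured and not bounds. Its log2 level was 6.20 ± 0.08 in iNS2 (SD, n = 3), 9.55 ± 0.07 in iNS3 (n = 4), 10.62 ± 0.09 in iNS5 (n = 4), 10.36 ± 0.07 in NS (n = 3) and 11.09 ± 0.04 in MEF (n = 4). iNS2 was 10.2-fold lower than iNS3, 21.4-fold lower than iNS5, 17.9-fold lower than NS and 29.7-fold lower than MEF. On the normalised scale no neighbouring lines in the order of levels overlapped. A second probe followed the same pattern at lower size, with 6.50 in iNS2, 8.07 in iNS3, 8.74 in iNS5 and 8.77 in NS, a range of 2.27 against 4.42 for the first. The remaining 2 probes were at background on every array.

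Ddit4l, on chromosome 3 (137623672 to 137628332), encodes a relative of Ddit4 and an inhibitor of mTORC1, the kinase complex that drives growth. Its probe gave 2610.0, 2162.7 and 2174.4 scanner units in iNS2, 147.4, 128.9, 143.8 and 130.2 in iNS3, plus 2104.9, 3367.2, 2848.4 and 2847.9 in iNS5. It gave 1734.8, 2245.8 and 2070.6 in NS, 670.3, 615.8 and 558.8 in ES, and 489.5, 464.6, 466.0 and 446.9 in MEF. Only iNS3 was at background, on all 4 of its arrays, while on the normalised scale iNS2 and iNS5 overlapped and lay just above NS. The log2 means were 11.09 ± 0.01 in iNS2 (SD, n = 3), 4.74 ± 0.22 in iNS3 (n = 4), 11.15 ± 0.07 in iNS5 (n = 4), 10.95 ± 0.06 in NS (n = 3), 8.97 ± 0.02 in ES (n = 3) and 8.68 ± 0.11 in MEF (n = 4). iNS3 was at least 50.4-fold lower than iNS2, at least 52.3-fold lower than iNS5 and at least 45.7-fold lower than NS. The other neural lines exceeded MEF by 5.32-fold in iNS2, 5.52-fold in iNS5 and 4.83-fold in NS, whereas iNS3 was at least 9.48-fold lower than MEF.

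Ramp1, on chromosome 1 (91179822 to 91225196), encodes a single-pass membrane protein that pairs with Calcrl to form the receptor for CGRP. Its brighter probe gave 4292.3, 3160.2 and 3237.3 scanner units in iNS2, 314.3, 255.0, 263.2 and 266.2 in iNS3, plus 3067.6, 4697.2, 4003.7 and 4091.1 in iNS5. NS gave 2130.9, 2426.5 and 2389.7, ES 154.2, 138.1 and 132.4, and MEF 150.9, 165.1, 154.9 and 151.5. iNS3 was low but above background on all 4 arrays, ES was at background on all 3, and MEF passed on 2 of 4. On the log2 scale Ramp1 averaged 11.73 ± 0.09 in iNS2 (SD, n = 3), 7.39 ± 0.26 in iNS3 (n = 4), 11.68 ± 0.05 in iNS5 (n = 4) and 11.15 ± 0.04 in NS (n = 3). iNS3 was 20.3-fold lower than iNS2, 19.6-fold lower than iNS5 and 13.6-fold lower than NS. It was still at least 3.19-fold higher than MEF, with MEF measured on 2 of 4 arrays. The second probe was dim, above background on 5 arrays only, and had its highest mean in iNS2 (5.78). It was at background on every array of iNS3 (4.53) and NS (5.11), where levels have no order.

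Csmd2, on chromosome 4 (127986505 to 128567660), encodes a large transmembrane protein with CUB and sushi domains that is found at synapses in the brain. Its brighter probe gave 443.3, 353.7 and 365.1 scanner units in iNS2, 128.0, 123.6, 129.2 and 109.8 in iNS3, plus 1256.6, 1758.2, 1449.8 and 1531.4 in iNS5. NS gave 124.9, 156.3 and 145.6, ES 141.5, 155.6 and 137.0, and MEF 131.9, 116.2, 120.9 and 136.4. Every array of iNS2 and iNS5 was above background, and none of the other 14 arrays was. The log2 level was 8.00 ± 0.06 in iNS2 (SD, n = 3) and 10.19 ± 0.09 in iNS5 (n = 4), so that iNS2 was 4.56-fold lower than iNS5. iNS2 was at least 5.96-fold and iNS5 at least 27.2-fold higher than NS, and iNS5 was at least 24.6-fold higher than MEF. NS, ES, MEF and iNS3 overlapped at background, where levels have no order. Of the 10 genes, Csmd2 was the one above background in clones while at background in both NS and MEF. The second probe was at background on all 21 arrays, and 5 other annotated genes overlap the Csmd2 span, none of them tested.

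Lxn, on chromosome 3 (67457999 to 67463907), encodes latexin, an inhibitor of carboxypeptidase A enzymes that is known to limit the number of blood stem cells in mice. Its probe gave 4311.0, 3609.6 and 3875.7 scanner units in iNS2, 2221.3, 2007.6, 2262.9 and 1786.7 in iNS3, plus 142.0, 188.2, 177.8 and 180.6 in iNS5. It gave 3527.5, 4811.4 and 3855.7 in NS, 665.7, 648.7 and 633.1 in ES, and 1685.7, 1936.3, 1750.3 and 1849.0 in MEF. All 4 iNS5 arrays were at background, and on the normalised scale iNS2 and NS overlapped at the top and iNS3 lay between these and MEF. The log2 means were 11.88 ± 0.07 in iNS2 (SD, n = 3), 11.04 ± 0.06 in iNS3 (n = 4), 5.19 ± 0.14 in iNS5 (n = 4), 12.01 ± 0.14 in NS (n = 3) and 10.85 ± 0.07 in MEF (n = 4). iNS5 was at least 93.8-fold lower than iNS2, at least 52.2-fold lower than iNS3, at least 102.2-fold lower than NS and at least 45.9-fold lower than MEF. The gene lies inside the span of Gfm1, a mitochondrial elongation factor gene, whose neural line means spanned 0.11.

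Ilvbl, on chromosome 10 (78574344 to 78584502), encodes an enzyme of the endoplasmic reticulum that, in human cells, cleaves hydroxylated fatty acyl-CoA. The brightest of its 4 probes gave 806.1, 656.9 and 574.8 scanner units in iNS2, 629.7, 575.4, 618.3 and 532.4 in iNS3, plus 168.0, 206.7, 196.8 and 201.2 in iNS5. It gave 1113.2, 1274.3 and 1148.9 in NS, 708.7, 586.8 and 594.4 in ES, and 2077.9, 2250.3, 2090.8 and 2179.1 in MEF. iNS5 was just above background on all 4 arrays for this probe, MEF was highest, and iNS2, ES and iNS3 overlapped. The log2 means were 9.08 ± 0.16 in iNS2 (SD, n = 3), 8.96 ± 0.08 in iNS3 (n = 4), 5.73 ± 0.10 in iNS5 (n = 4), 10.11 ± 0.07 in NS (n = 3) and 11.12 ± 0.04 in MEF (n = 4). iNS5 was 10.1-fold lower than iNS2, 9.35-fold lower than iNS3, 20.8-fold lower than NS and 41.9-fold lower than MEF. On the other tested probes MEF was again highest and iNS5 lowest, with iNS5 at background on all 4 arrays (4.95 and 4.85) and NS at 8.80 and 7.74. The fourth probe passed on 3 of 21 arrays.

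Mmd2, on chromosome 5 (142563480 to 142608936), belongs to the PAQR family of membrane proteins and lies in the Golgi. Its probe gave 234.7, 222.2 and 250.5 scanner units in iNS2, 310.0, 298.9, 365.7 and 288.3 in iNS3, plus 3279.3, 4895.4, 4071.6 and 4283.6 in iNS5. NS gave 651.5, 722.9 and 673.7, ES 161.9, 175.6 and 176.0, and MEF 132.9, 119.4, 123.3 and 129.3. All neural arrays were above background, no 2 lines overlapped, and MEF was at background on all 4 arrays. The log2 level was 6.81 ± 0.29 in iNS2 (SD, n = 3), 7.72 ± 0.19 in iNS3 (n = 4), 11.74 ± 0.05 in iNS5 (n = 4) and 9.20 ± 0.08 in NS (n = 3). iNS5 was 30.6-fold higher than iNS2, 16.3-fold higher than iNS3, 5.83-fold higher than NS and at least 72.3-fold higher than MEF. iNS2 and iNS3 lay below NS, by 5.25-fold and 2.80-fold, so Mmd2 differed in both directions from NS among the clones.

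Smim20, on chromosome 5 (53267106 to 53278540), encodes a small mitochondrial membrane protein that binds a newly made core subunit of cytochrome c oxidase during assembly. Its brighter probe gave 134.6, 129.4 and 128.7 scanner units in iNS2, 132.7, 139.3, 134.1 and 130.4 in iNS3, plus 134.2, 168.5, 144.3 and 148.9 in iNS5. NS gave 503.6, 580.2 and 638.1, ES 963.1, 904.7 and 791.8, and MEF 1051.6, 1144.6, 1103.2 and 1071.9. All 11 clone arrays were at background and all 10 others above it, on this probe and on the second one. The log2 level was 4.46 ± 0.03 in iNS2 (SD, n = 3), 4.64 ± 0.19 in iNS3 (n = 4), 4.60 ± 0.14 in iNS5 (n = 4), 8.89 ± 0.14 in NS (n = 3), 9.59 ± 0.05 in ES (n = 3) and 10.11 ± 0.07 in MEF (n = 4). The clones were at least 10.95-fold lower than NS (the bound for iNS3, with 11.2-fold for iNS2 and 11.8-fold for iNS5) and at least 25.5-fold lower than MEF, the labelled source of the clones. Smim20 was the 1 gene of the 10 at background on every clone array, where levels have no order, so differences among the clones cannot be read for it. The second probe gave 6.72 ± 0.28 in NS and at most 4.45 in a clone.

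**Figure D3:**
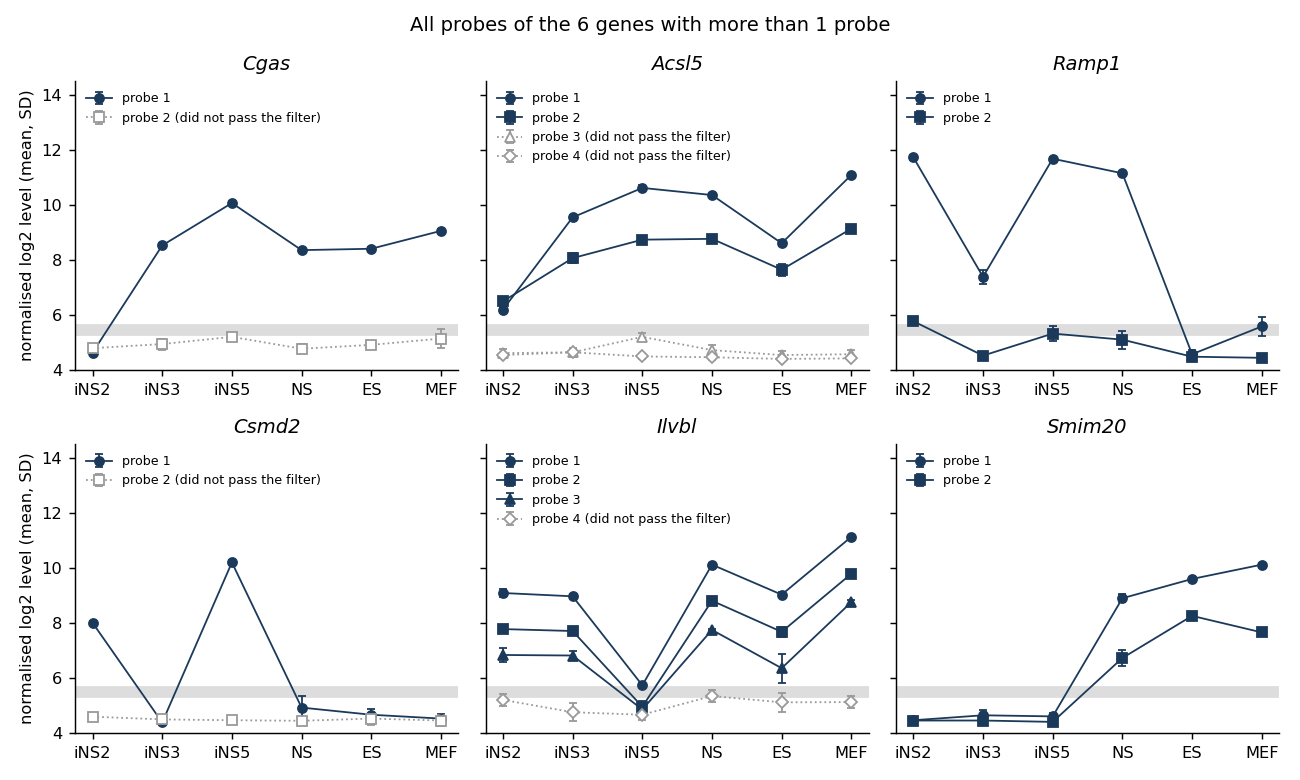
Line means of the normalised log2 level with SD (vertical axis) by line, for every probe of the 6 genes with more than 1 probe; solid dark lines are probes that passed the filter, dotted grey lines are probes that did not, and the grey band spans the dimmest passing level. The lowest neural line is the same for all passing probes of Acsl5 (iNS2) and Ilvbl (iNS5). All clone means of both Smim20 probes lie below 4.7. The dimmer Ramp1 probe is at background in both iNS3 and NS, where levels have no order.

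How rare such patterns were among all genes is read from the detection calls alone. A gene at background on every iNS2 array and above it on every array of iNS3, iNS5 and NS occurred 18 times (0.172% of 10449), Mcts1 and Cgas among them. The same pattern for iNS3 occurred 17 times (0.163%), Ddit4l among them, and for iNS5 19 times (0.182%), Lxn among them. The pattern of Csmd2 was rarer, as 4 genes (0.0383%) were above background in iNS2 and iNS5 and at background in iNS3 and NS. Smim20 was 1 of 38 genes (0.364%) at background on every clone array and above it on every NS array. On the brightest probe, Acsl5, Ramp1, Ilvbl and Mmd2 passed on every neural array and were therefore graded rather than off. On their dimmer tested probes, Ilvbl was at background on all 4 iNS5 arrays and Ramp1 on every array of iNS3 and NS. For Ilvbl and Ramp1, graded or off thus depended on the probe. These counts describe patterns the 10 genes were picked for.

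ES and MEF were compared with limma's treat test against a 2-fold change, adjusted by Benjamini-Hochberg over all 10449 genes. Of the 10 genes, 3 were lower in ES, against 22.8% of all genes, and 0 were higher, against 22.0% of all genes (0 also at an unadjusted limma p under 0.05). The other 7 did not pass, while 44.9% of all genes passed in either direction. The counts were read on single lines with technical replicates. ES and MEF shared no slide, and iNS5, with arrays on slides of both, ties them together in a fit with slide as a fixed block. In that fit the differences of the 10 genes moved by at most 0.37 and each stayed on its side of the threshold. Acsl5 was 5.58-fold lower in ES, at 8.61 ± 0.10 (SD, n = 3), than in MEF at 11.09 ± 0.04 (n = 4), a log2 difference of -2.48 ± 0.06 (SE; limma treat adjusted p = 2.16e-14). Its second probe gave -1.49 ± 0.11 (limma adjusted p = 0.000358). Ilvbl was 4.29-fold lower in ES, 9.02 ± 0.10 against 11.12 ± 0.04 in MEF, a difference of -2.10 ± 0.08 (limma adjusted p = 4.62e-11), and its other tested probes gave -2.12 and -2.40. Lxn was 3.43-fold lower in ES, 9.08 ± 0.10 against 10.85 ± 0.07 in MEF, a difference of -1.78 ± 0.08 (limma adjusted p = 1.67e-08). The 3 ES arrays of each of these genes lay below all 4 MEF arrays. The median ES minus MEF difference of the 10 genes was -0.58, against 0.06 over all genes.

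The other 7 genes had smaller or uncertain differences between ES and MEF. Mcts1 differed by -0.20 ± 0.05, Cgas by -0.65 ± 0.06, Ddit4l by 0.29 ± 0.09 and Smim20 by -0.52 ± 0.09 on its brighter probe, while its second probe gave 0.60, the opposite sign. Ramp1 differed by -1.01 ± 0.14 (limma adjusted p = 0.914) and Mmd2 by 1.01 ± 0.16 (limma adjusted p = 0.91), both with levels at or near background. Csmd2 was at background in both lines, so no fold is given. A p above the threshold does not show that these levels were the same.

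Genes of the same pathways were listed for each gene and tested among the 4 neural lines with the same fit. Of 103 tested related genes, 5 passed in at least 1 of the 6 comparisons among iNS2, iNS3, iNS5 and NS (4.85%, against 7.1% of all genes), and their median range was 0.41, against 0.47 over all genes. Per comparison, 0.947% of all genes passed for iNS2 against iNS3, 2.04% for iNS2 against iNS5, 3.87% for iNS3 against iNS5, 2.32% for iNS2 against NS, 2.24% for iNS3 against NS and 3.23% for iNS5 against NS. In limma's test 0 passed of the 9 tested ribosome recycling and re-initiation genes of the Mcts1 list (0 also at an unadjusted p under 0.05), and Denr, the partner of Mcts1, stood at 7.38 in iNS2, 7.99 in iNS3, 7.24 in iNS5 and 7.18 in NS. Likewise 0 passed of the 18 tested mTORC1 genes of the Ddit4l list (1 at an unadjusted p under 0.05), with Ddit4 at 10.27, 10.29, 11.24 and 11.18 in iNS2, iNS3, iNS5 and NS. The 15 tested acyl-CoA genes listed for Ilvbl and Acsl5, the 8 tested complement and sushi genes listed for Csmd2 and the 21 tested assembly genes listed for Smim20 also held 0 that passed. At an unadjusted p under 0.05 these lists held 0, 2 and 0.

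In the cytosolic DNA sensing list for Cgas, 1 of 17 tested genes passed. It was Sting1, the receptor downstream of Cgas, at 7.45 in iNS2, 8.18 in iNS3, 6.27 in iNS5 and 7.92 in NS. iNS3 exceeded iNS5 by 1.92 ± 0.08 (SE; limma adjusted p = 1.67e-08), and iNS5 was below NS by a difference of -1.65 ± 0.08 (limma adjusted p = 6.4e-06). Sting1 was therefore lowest in iNS5, the clone with the highest Cgas level, and it was not called between iNS2 and NS (-0.47). The DNA exonuclease Trex1 and the kinase Tbk1 spanned 0.48 and 0.41.

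Rarres1, a relative of Lxn and its neighbour on chromosome 3, was the 1 of 6 tested genes of its list that passed. It was at background in iNS2 (4.65) and iNS3 (4.71), at 7.11 in iNS5 and at 5.76 in NS. iNS2 was below iNS5 by a difference of -2.46 ± 0.12 (limma adjusted p = 4.26e-08) and iNS3 below iNS5 by -2.40 ± 0.11 (limma adjusted p = 1.77e-08). Among the 3 clones its direction was thus opposite to that of Lxn, which was at background in iNS5 and high in iNS2 and iNS3. In NS both genes were above background on all 3 arrays.

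Of the calcitonin family list for Ramp1, 2 of 5 tested genes passed. Adm, a peptide ligand of this family, was at 6.66 in iNS2, 7.66 in iNS3, 8.86 in iNS5 and 8.44 in NS. iNS2 differed from iNS5 by -2.20 ± 0.11 (limma adjusted p = 1.38e-07) and from NS by -1.78 ± 0.12 (limma adjusted p = 0.000106). Ramp2, which pairs with Calcrl to form an adrenomedullin receptor, was at 8.79 in iNS2, 7.87 in iNS3, 9.80 in iNS5 and 8.69 in NS, and iNS3 was below iNS5 by a difference of -1.93 ± 0.08 (limma adjusted p = 9.14e-08). Ramp1 and Ramp2 thus both had their lowest mean of the 4 lines in iNS3. Calcrl, the partner of both, did not pass, at 5.93 in iNS2, 5.95 in iNS3, 4.74 in iNS5 and 5.40 in NS. It was near background, detected on all 3 iNS2 arrays, 3 of 4 iNS3 arrays, 1 of 3 NS arrays and 0 iNS5 arrays.

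For Mmd2, 1 of 4 tested PAQR genes passed. Paqr7, a progestin receptor of the membrane, was at background in iNS2 (4.59) and iNS5 (4.48), at 5.55 in iNS3 and at 7.24 in NS. It was below NS in iNS2 by a difference of -2.65 ± 0.16 (limma adjusted p = 1.75e-07), in iNS3 by -1.69 ± 0.15 (limma adjusted p = 0.00447) and in iNS5 by -2.76 ± 0.15 (limma adjusted p = 1.84e-08). Paqr7 was thus at background both in iNS5, where Mmd2 was highest, and in iNS2, where Mmd2 was lowest of the neural lines. Mmd, a close relative of Mmd2, spanned 0.28.

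**Figure D4:**
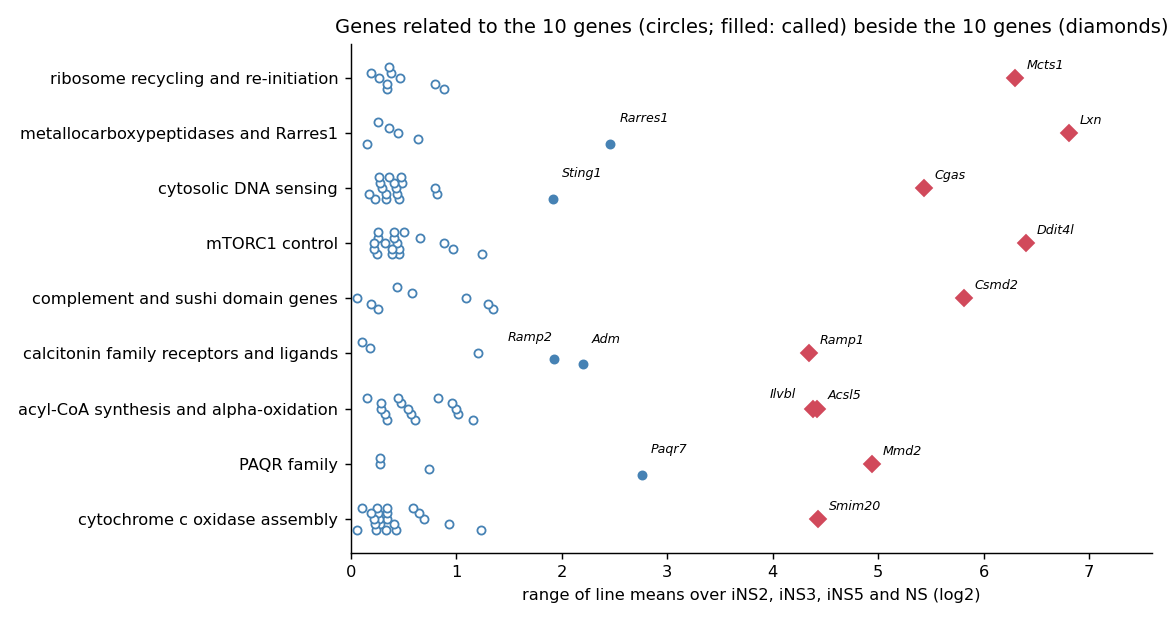
Range of the line means over iNS2, iNS3, iNS5 and NS (log2, horizontal axis) for each tested gene of the 9 lists (circles; filled where called in at least 1 comparison) and for the 10 genes themselves (red diamonds). The 5 filled circles are Rarres1, Sting1, Adm, Ramp2 and Paqr7, at ranges of 1.92 to 2.76, below the 10 genes.

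The genes beside each of the 10 on its chromosome were examined next, 2 tested genes on each side and 40 in all. Of these, 6 passed in at least 1 of the 6 comparisons (15%, against 7.1% of all genes), and their median range of 0.48 was close to the 0.47 of all genes. Slc29a4, a monoamine transporter gene whose start lies 129.0 kb from that of Mmd2, was at 9.22 in iNS2, 7.06 in iNS3, 9.89 in iNS5 and 7.27 in NS. It exceeded NS in iNS5 by 2.62 ± 0.16 (limma adjusted p = 1.91e-07) and in iNS2 by 1.96 ± 0.17 (limma adjusted p = 0.000573), so it shared with Mmd2 the high level in iNS5 but not the low level in iNS2. Rarres1 starts 20.9 kb from Lxn and ran opposite to it among the 3 clones, while both were above background in NS. Emcn, which starts 282.6 kb from Ddit4l and encodes an endothelial sialomucin, was at 6.43 in NS and at background in iNS2 (4.53), iNS3 (5.10) and iNS5 (4.59), and passed below NS in iNS2 and iNS5. Pecam1 and Cdh5, the 2 endothelial markers, were at background in all clones and NS.

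Cstb, 148.7 kb from Ilvbl, was at 10.52 in iNS2, 9.56 in iNS3, 11.12 in iNS5 and 10.57 in NS, and was lower in iNS3 than in iNS5 by a difference of -1.55 ± 0.05 (limma adjusted p = 1.94e-08), where Ilvbl was higher in iNS3. Sel1l3, 160.0 kb from Smim20, was at 9.57 in iNS2, 10.66 in iNS3, 9.33 in iNS5 and 9.74 in NS, and passed between iNS3 and iNS5 (1.33 ± 0.08; limma adjusted p = 0.0148). That call ended without iNS3 replicate 1 (limma adjusted p = 0.0769) and without iNS5 replicate 1 (limma adjusted p = 0.0521). Gria3, 2800.3 kb from Mcts1, passed between iNS3 and iNS5 (1.37 ± 0.11; limma adjusted p = 0.0483), a call that ended in 17 of the 21 fits that left out 1 array. Of the 16 tested neighbours of Cgas, Acsl5, Ramp1 and Csmd2, 0 passed in limma's test (0 also at an unadjusted p under 0.05). Cul4b and C1galt1c1, on either side of Mcts1, spanned 0.58 and 0.51. Mto1 and Eef1a1, on 1 side of Cgas, spanned 0.24 and 0.08. On its other side Ooep was at background on every neural array, so its span of 0.04 carries no information. Dppa5a, next beyond Ooep, spanned 0.70, at 5.16 in iNS2, 4.97 in iNS3, 5.67 in iNS5 and 5.51 in NS.

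**Figure D5:**
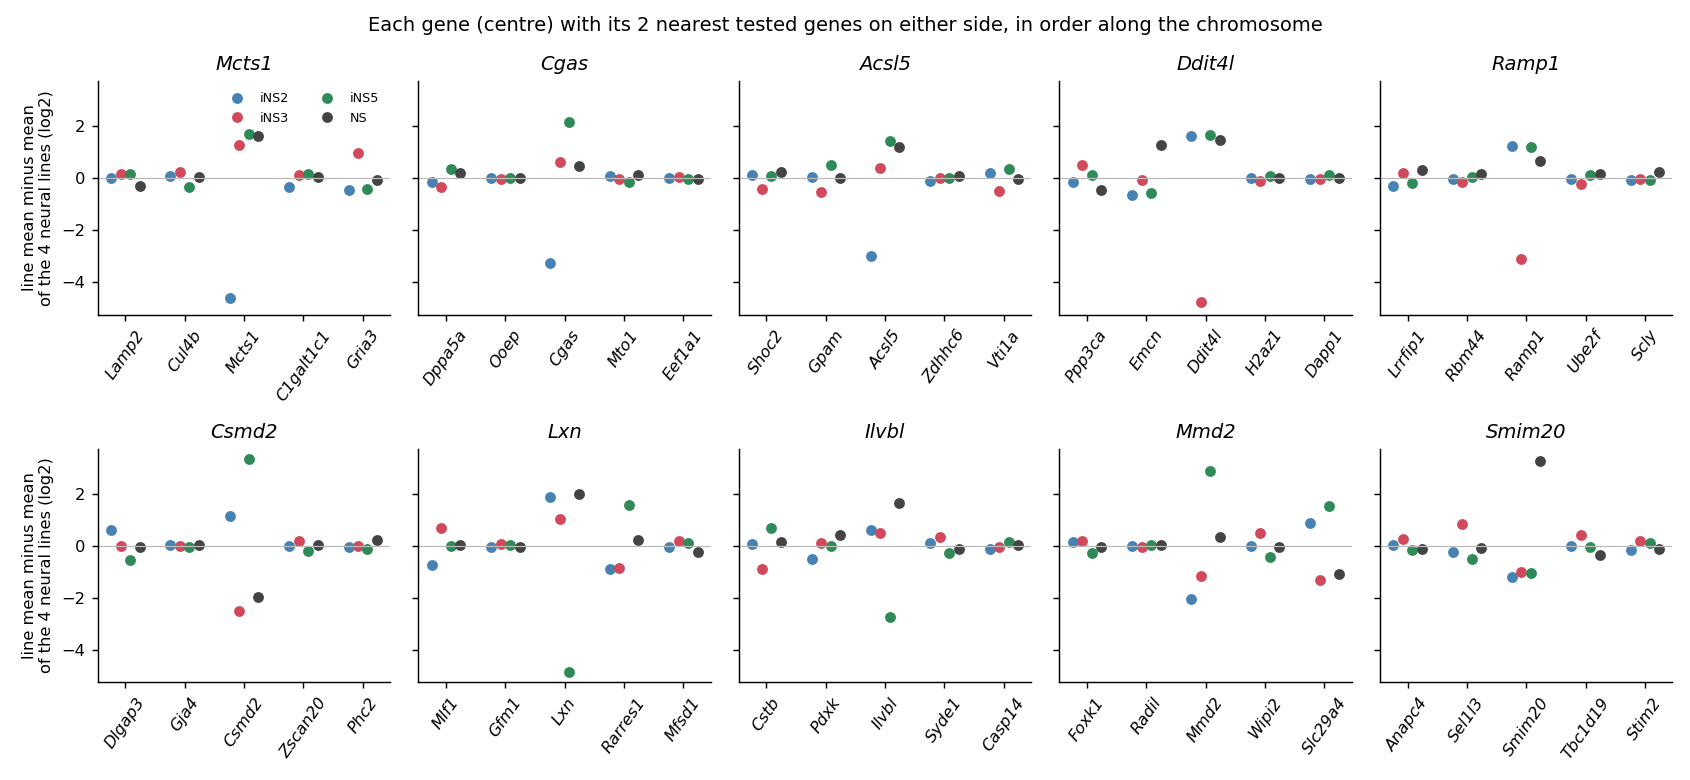
Line mean minus the mean of the 4 neural lines (log2, vertical axis) for each of the 10 genes (centre of its panel) and its 2 nearest tested genes on either side, in order along the chromosome; colours mark iNS2, iNS3, iNS5 and NS. The widest neighbours are Slc29a4 beside Mmd2 (range 2.83) and Rarres1 beside Lxn (range 2.46). The neighbours of Cgas and Ramp1 span at most 0.70, some of them at background in all 4 lines.

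Among the 1536 tested genes outside the 10 that spanned at least 1 over the neural lines, those most like each gene across the 6 line means were found by Pearson's r. With 6 points per gene these values are a description, carry no p, and share the same arrays. Osbp and Lpl were most like Mcts1 (r = 0.974 and 0.966), and Lpl, the gene of lipoprotein lipase, was at 4.43 in iNS2, 9.13 in iNS3, 8.67 in iNS5 and 9.27 in NS. Gm2a was most like Cgas (0.912) and also among the 3 most like Acsl5 (0.897), and Ndn, an imprinted gene of neurons, followed Acsl5 (0.910) with 4.55 in iNS2 and 9.62, 8.92 and 10.37 in iNS3, iNS5 and NS. For Ddit4l the list held Slc19a1 (0.938) and Ctsc (0.937), which was at 10.61 in iNS2, 4.36 in iNS3, 10.04 in iNS5 and 11.46 in NS. Ramp1 was nearest to Cxxc5 (0.977), Csmd2 to Cldn10 (0.982), Lxn to Caskin2 (0.951), Ilvbl to Pdia4 (0.960) and Mmd2 to Slc37a4 (0.985). Pearson's r compares shape and not size. These last matches spanned only 1.06 (Caskin2) to 1.28 (Cldn10) over the neural lines, against 4.34 to 6.81 for the 10 genes. Osbp and Slc19a1 spanned 1.83 and 1.64. Caskin2 passed on every array, at 7.28 in iNS5, where Lxn was at background. Emc9 was most like Smim20 (0.986), at 4.59 in iNS2, 4.63 in iNS3, 4.63 in iNS5, 7.26 in NS, 8.82 in ES and 9.17 in MEF. Among the 10 genes themselves, Mcts1 and Cgas had r = 0.938, Cgas and Acsl5 0.913, and Lxn and Ilvbl 0.847.

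Slides held several lines, so the differences were also read within a slide. iNS2 and iNS3 lay together on slide 2, where the difference of any of the 10 genes moved by at most 0.10 from its value over all arrays. On slide 4, where iNS3 and iNS5 had 1 array each beside the 3 of NS, the differences moved by at most 0.29 for iNS3 against NS, 0.29 for iNS3 against iNS5 and 0.20 for iNS5 against NS. iNS2 shared no slide with iNS5 or NS, and these pairs are tied through the iNS3 arrays on slides 2 and 4. With slide as a fixed block, the differences of the 10 genes moved by at most 0.39 for iNS2 against iNS5 and by at most 0.38 for iNS2 against NS, both for Ramp1. No difference of at least 1 changed sign in any of these comparisons.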

How the data were processed

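The 10 genes, the related-gene lists and the other lists were chosen with earlier results of these data known. The deposited scanner intensity of each probe is a linear-scale average over the beads, from which background is not removed, per the file headers. Per the file headers, the authors also deposited a detection p-value, a bead number and a bead standard error per array. A second table deposited by the authors holds scaled intensity, a straight-line function of each array's scanner signal with a column mean of 379.2; its scale is linear, no centring across arrays was seen, its column medians lay between 6.7 and 8.3, and nothing states how its background was set. GenomeStudio, with no version, is named in the submitters' processing notes. The platform annotation gave 1 symbol to 34885 probes, several to 18 and none to 10378, and 34807 gene IDs matched RefSeq. All value columns were mapped to a line.

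Background correction, quantile normalisation and the log2 step used neqc (offset 16, controls inferred from detection p-values) in limma 3.58.1 under R 4.3.3. A probe was tested if it had 1 symbol and passed on every array of at least 1 line, and the brightest such probe stood for its gene. One fit of 21 arrays and 6 lines (15 residual degrees of freedom) was tested with treat against 2-fold at an adjusted p of 0.05. On simulated ES against MEF data over 10449 genes, 100 of 100 changes of log2 size 2 were recovered and 100 of 100 of size 3, with 0 false calls. All other genes were given equal line means there, far inside the 2-fold threshold. Changes nearer the threshold and slide effects were not simulated. Named genes were all probes of the 10, up to 4 called genes per related list, called neighbours (2 on each side by RefSeq start) and the 3 genes of highest r. Related genes and neighbours enter no set test. Alternatives were median scaling, the authors' table, an offset of 50, no detection filter, all tested probes, slide as a random or fixed block and leaving out each array. The number of arrays limits the precision. Figures were drawn with matplotlib.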

Additional observations from a re-analysis of the deposited data

Results flagged for a closer look

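Of 30 groups of 4 arrays (each of the 10 genes in iNS3, iNS5 and MEF), 1 held an array far from the others, and chance gives about 1 in 20 such groups. It was Mcts1 in iNS5, where replicate 3 had a log2 level of 10.79, against a median of 10.92 over the other 3 arrays. The gap to the nearest array was 0.85 of the range of the group. Mcts1 in iNS2 averaged 4.59.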

How the results depend on the processing

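No paired analysis was possible because the labels give the arrays no replicate numbers shared between lines. The 10 ES against MEF calls stayed on the same side of the threshold, with the same direction, in all 280 alternative values. The lines with the highest and lowest level of each of the 10 genes among the neural lines held under median scaling, the authors' table and an offset of 50, except that under median scaling the highest line of Ramp1 was iNS5 in place of iNS2, whose levels overlap. The size of the ranges depended on the setting. All 10 were wider in the authors' table and narrower with an offset of 50. The range of Lxn was 6.81, against 6.74 under median scaling, 7.61 in the authors' table and 5.88 with an offset of 50. For Smim20 it was 4.43, against 4.45, 4.85 and 3.18 in the same order. Counts over all genes moved by over 1.5 times in these cases. For iNS2 against iNS3, 99 of 10449 genes passed, and 150 of 15972 probes with every tested probe counted. For iNS2 against iNS5, 213 passed, and 114 with slide as a fixed block. For iNS3 against iNS5, 404 genes passed, against 269 with an offset of 50 and 193 with slide as a fixed block. With every probe counted, 686 of the 15972 probes passed. For iNS2 against NS, 242 passed, and 152 with slide as a fixed block. For iNS3 against NS, 234 passed, against 143 with an offset of 50 and 152 with slide as a fixed block. A larger offset compresses low levels, counting every probe raises the number of tests, and the block leaves 12 residual degrees of freedom. Beyond that the cause was not tested. Leaving out 1 array gave 4568 to 4698 calls for ES against MEF, 89 to 102 for iNS2 against iNS3, 196 to 217 for iNS2 against iNS5, 372 to 408 for iNS3 against iNS5, 219 to 246 for iNS2 against NS, 212 to 241 for iNS3 against NS and 311 to 341 for iNS5 against NS, and 4 to 6 called neighbours and 5 to 7 called related genes. Emcn lost both calls with an offset of 50, and the call of iNS2 against NS with slide as a fixed block (adjusted p = 0.786). Paqr7 in iNS3 against NS was lost with that offset and that block (0.326). Gria3 and Sel1l3 were lost with median scaling and with slide as a fixed block. The clones are single lines, the arrays technical replicates, and a level near the dimmest passing signal is a bound.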
